A study of Canis lupus familiaris and Dasypus novemcinctus and Ornithorhynchus anatinus with 3 samples.

Results

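The genes described here are 10 known targets of progesterone or of decidualisation, the change of uterine stromal cells that progesterone drives: FKBP5, FKBP4, KLF9, ZBTB16, DKK1, SST, TIMP3, SCARA5, STAT5A and IL15. They were read by gene symbol from messenger RNA sequencing of the lining of the uterus (endometrium) of a pregnant dog, armadillo and platypus, with 1 library per species. All 10 were found in at least 1 table, among 17444 symbols in all. By symbol, 7 of them were found in the dog table and 8 in each of the others, and 5 (FKBP5, FKBP4, KLF9, DKK1 and TIMP3) stand in all 3 tables, which share 6386 symbols. Dog and armadillo are placental mammals, and the platypus lays eggs. The stage of pregnancy, the age and the number of animals behind a library are not given in the labels, and all 3 groups are pregnant, so no level without pregnancy was measured.

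Progesterone binds its nuclear receptor, which is held ready for the hormone by HSP90 and a set of co-chaperones, and the bound receptor then switches target genes on or off. In the uterus these targets include the regulators of the receptor itself, transcription factors, secreted inhibitors of WNT signalling and of matrix proteases, and cytokines that act on uterine immune cells. Several of the same genes also answer to glucocorticoids, whose receptor recognises the same DNA element.

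Levels are given as normalised CPM, CPM (the share of a library's reads that fall on a gene, scaled to 1000000 reads) times a factor that scales the libraries to each other. A gene was counted as higher in a library where the fold was 4 or more on the log2(normalised CPM + 1) scale and the higher library reached 5 normalised CPM. That scale understates folds of low genes with reads, and can overstate a fold against a platypus count of 0, since 3 reads there are worth more than the pseudocount of 1. The folds printed below carry no pseudocount and divide one level by the other. Intervals are 95% intervals of counting error, and no difference has a replicate check or a p-value. The dog table held 13625465 reads, that of armadillo 13218476 and that of platypus 2243556, so that 1 read was worth 0.0585, 0.0754 and 0.535 normalised CPM. A count of 0 allows up to 3 reads, or 0.175, 0.226 and 1.60 normalised CPM. A gene listed at 0 may still be present: 7 of 51 genes for ribosomal proteins, which all cells use, were listed at 0 in platypus and 6 of 42 in dog. Every gene of the armadillo table has a read or more, and one that it lacks was treated as unmeasured. Lengths of gene models were not available for armadillo and platypus, and unequal gene models can therefore shift a fold between species. Scaling moved the log2 folds of all genes by -0.32 for dog over armadillo, -0.59 for dog over platypus and -0.27 for armadillo over platypus, relative to plain CPM.

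Across the members the armadillo library was highest for FKBP5, KLF9, DKK1 and TIMP3, and lowest for FKBP4. Between dog and armadillo 6 members could be compared: 1 was at least 4-fold higher in dog, against 9.76% of all 8908 matched genes, and 2 were higher in armadillo, against 15.2%. Between dog and platypus 2 of 6 were higher in dog, against 27.3% of 9073 genes, and 2 were higher in platypus, against 13.5%. Of the former 2, DKK1 was counted against a platypus level of 0, and the 3 reads that this allows leave it at least 3.72-fold higher in dog, short of 4-fold. With every gene at 0 set to 3 reads, 1 of 6 members was higher in dog, against 25.7% of all genes. Between armadillo and platypus 5 of 6 were higher in armadillo, against 34.0% of 7296 genes, and 1 was higher in platypus, against 13.2%. For 2 of those 5 (DKK1 and SST) the platypus table lists 0, and without genes at 0 the count was 3 of 4, against 24.8% of 5393 genes. With genes at 0 set to 3 reads it was 4 of 6, against 31.7%, as SST then lay below the limit on that scale (log2 fold 1.90). The median log2 fold of the compared members was -1.82 for dog over armadillo, 0.44 for dog over platypus and 3.31 for armadillo over platypus, beside -0.20, 0.25 and 0.89 over all matched genes. With genes at 0 set to 3 reads the members' medians were -1.82, 0.42 and 2.85, beside -0.15, -0.16 and 0.58. With so few members, these counts describe the genes one by one and not the list. Each library enters 2 of the 3 comparisons. The same shares of all genes stand beside the counts of the other gene lists and marker lists below, which hold few matched genes. Part of the counts against platypus rest on genes listed at 0 there.

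**Figure D1:**
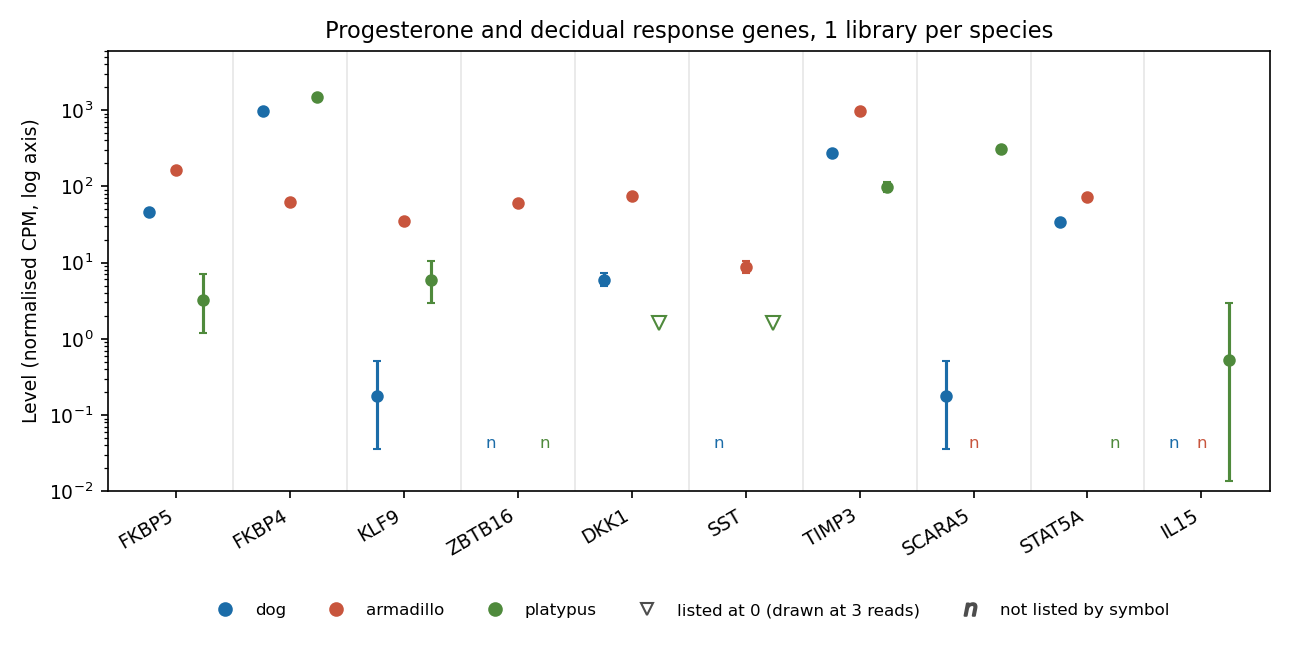
Level of each of the 10 genes in each library, in normalised CPM on a log axis, with points for the measured level and bars for the exact Poisson 95% interval of counting error. Armadillo lies highest for FKBP5 (162), KLF9 (34.6), DKK1 (75.3) and TIMP3 (986) and lowest for FKBP4 (63.1); open triangles mark genes listed at 0, drawn at 3 reads, and n marks a gene not listed by symbol.

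**Figure D2:**
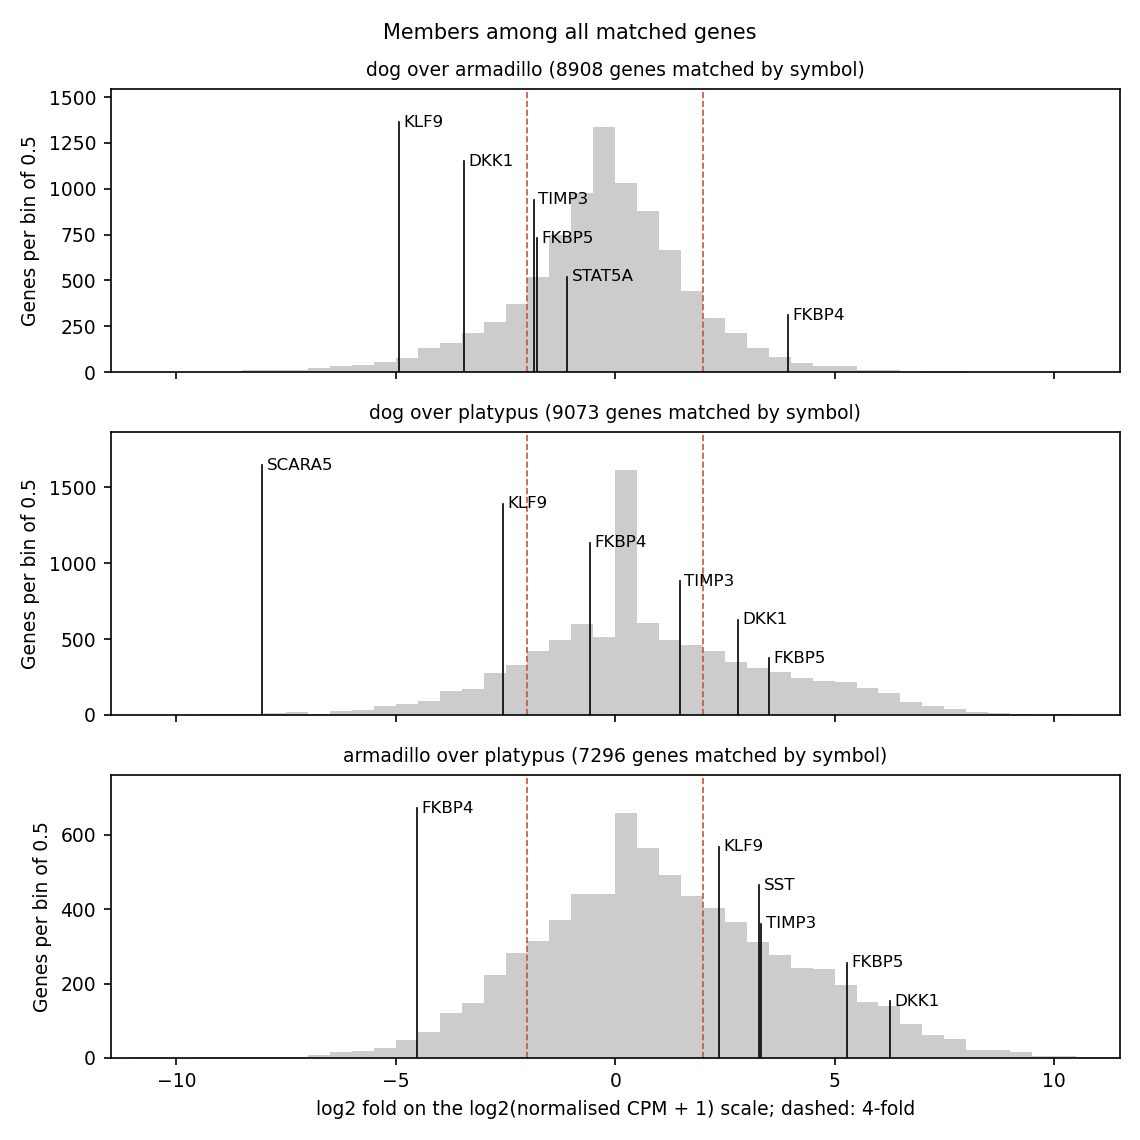
Log2 fold of every gene matched between 2 libraries (grey histogram, genes per bin) with the members marked by black lines, and dashed lines at 4-fold. In dog over armadillo FKBP4 (3.94) lies beyond 4-fold on the dog side, and KLF9 (-4.92) and DKK1 (-3.45) lie beyond it on the armadillo side; in armadillo over platypus all 6 members lie beyond 4-fold, of which DKK1 and SST are listed at 0 in platypus.

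FKBP5 and FKBP4 encode related HSP90 co-chaperones of steroid receptors. FKBP4 raises the response of the progesterone receptor to its hormone, and FKBP5 lowers it and is itself induced by progesterone and glucocorticoids. The Ensembl genes of FKBP5 are ENSCAFG00000001343, ENSDNOG00000004678 and ENSOANG00000014270. FKBP5 had 794 reads in dog (46.4 normalised CPM, 95% interval 43.3 to 49.8), 2154 in armadillo (162, 156 to 169) and 6 in platypus (3.21, 1.18 to 6.99). The armadillo level was 3.50-fold (95% interval 3.22 to 3.80) that of dog, below the 4-fold limit, and 50.6-fold (95% interval 23.2 to 138) that of platypus. Dog was 14.5-fold (95% interval 6.62 to 39.6) above platypus. The 3 intervals of the level do not overlap, in the order armadillo, dog, platypus, and the platypus value rests on 6 reads.

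FKBP4 showed another order. FKBP4 stands in the tables as the Ensembl genes ENSCAFG00000015576, ENSDNOG00000011244 and ENSOANG00000001038. It had 16807 reads in dog (983 normalised CPM, 95% interval 968 to 998), 837 in armadillo (63.1, 58.9 to 67.5) and 2749 in platypus (1470.5, 1416 to 1527). The dog level was 15.6-fold (95% interval 14.5 to 16.7) that of armadillo, a log2 fold of 3.94 that 1.83% of matched genes exceeded on the dog side. Platypus was 23.3-fold (95% interval 21.6 to 25.2) above armadillo, and 1.75% of genes had a larger fold on the platypus side. Platypus and dog differed by 1.50-fold (95% interval 1.44 to 1.56), but without scaling the log2 fold of dog over platypus went from -0.58 to 0.01, so no order of these 2 libraries can be given.

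The ratio of FKBP4 to FKBP5 reads within a library does not depend on the scaling between libraries. There were 21.2 reads of FKBP4 per read of FKBP5 in dog (95% interval 19.7 to 22.8), 0.389 in armadillo (0.358 to 0.421) and 458 in platypus (210.2 to 1250). Armadillo was thus the 1 library with more reads of FKBP5 than of FKBP4. The ratio was 54.5-fold higher in dog than in armadillo (95% interval 48.9 to 60.6) and 21.6-fold higher in platypus than in dog (9.69 to 48.4). The ratio itself is not corrected for the lengths of the 2 gene models. In dog, where the deposited relative abundance is per length, FKBP4 stood at 510.1 and FKBP5 at 20.1, above 99.6% and 76.4% of dog genes.

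**Figure D3:**
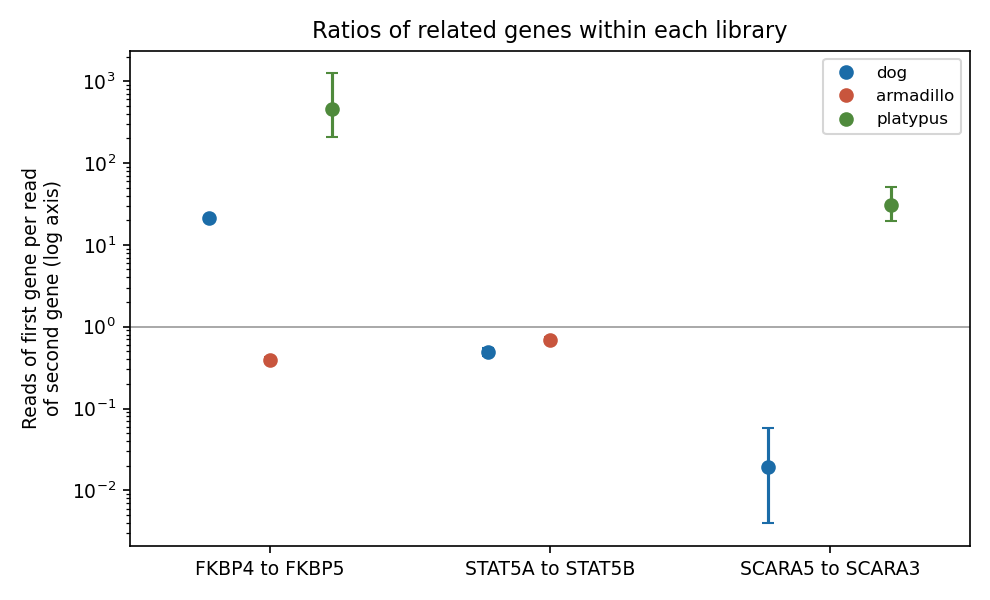
Reads of the first gene per read of the second gene within each library, on a log axis, for 3 pairs of related genes, with 95% intervals of counting error. The FKBP4 to FKBP5 ratio is 21.2 in dog, 0.389 in armadillo and 458 in platypus, whereas the STAT5A to STAT5B ratio is 0.491 in dog and 0.696 in armadillo.

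Of the other FKBP and cyclophilin genes, which also encode prolyl isomerases, 10 were matched between dog and armadillo, with 0 higher in dog and 3 in armadillo (FKBP3, FKBP7 and FKBPL). Armadillo FKBP7, an isomerase of the endoplasmic reticulum, was 6.99-fold (95% interval 5.90 to 8.31) above dog. FKBP3, a nuclear isomerase, had 279 reads in armadillo and 335 in platypus and was listed at 0 in dog. Against platypus, 3 of 8 were higher in dog and 3 in platypus. Between armadillo and platypus 3 of 6 were higher in armadillo and 2 in platypus. FKBP1A was not listed by symbol in any of the tables. Among the chaperones that load steroid receptors, few were matched. PPID, the cyclophilin that shares the HSP90 docking site of the FKBP co-chaperones, had a dog level of 180.2 normalised CPM, an armadillo level of 27.8 and a platypus level of 374, lowest in armadillo as FKBP4 was. PTGES3, the p23 co-chaperone, was at 190.5, 96.9 and 572. Of 4 chaperones matched between dog and armadillo, 1 (PPID) was higher in dog and 0 in armadillo. Of 5 matched between armadillo and platypus, 3 (HSPA8, PTGES3 and PPID) were higher in platypus and 1 (HSPA4) in armadillo. Of 4 matched between dog and platypus, 1 (AHSA1) was higher in dog and 0 in platypus.

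The members that encode transcription factors are KLF9, ZBTB16 and STAT5A. KLF9, a zinc finger factor that works with the progesterone receptor, had 3 reads in dog (0.175 normalised CPM, 95% interval 0.0362 to 0.513), 459 in armadillo (34.6, 31.5 to 37.9) and 11 in platypus (5.88, 2.94 to 10.5). Its Ensembl genes are ENSCAFG00000001867, ENSDNOG00000018839 and ENSOANG00000005024. Armadillo was 197-fold (95% interval 67.1 to 960.0) above dog and 5.88-fold (95% interval 3.26 to 11.9) above platypus. With the libraries scaled by their upper quartiles instead, the log2 fold of armadillo over platypus was 1.92, below the 4-fold limit. Platypus was 33.5-fold (95% interval 8.86 to 187) above dog, from 11 and 3 reads. That last difference was not counted with plain CPM, where the platypus level of 4.90 falls below 5. The dog gene model of KLF9 is short, at 417 bases by the deposited relative abundance, against a median of 1413 over 15084 dog genes with reads, and its part in the low dog count was not tested. Per length KLF9 stood above 35.3% of dog genes.

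Levels of other KLF genes varied. KLF12 was highest in armadillo, as KLF9 was, at 2.22 for dog, 8.14 for armadillo and 3.74 for platypus (7 reads). Each difference was below the 4-fold limit. Platypus was 1.68-fold dog (95% interval 0.635 to 3.82), which gives no order of dog and platypus. KLF5, an epithelial factor, had a dog level of 345 normalised CPM, against 7.16 for armadillo and 22.5 for platypus. KLF10, induced by TGF-beta, was at 55.6 in dog and 140.3 in armadillo and listed at 0 in platypus. KLF15, a glucocorticoid and progesterone target, was at 2.75 in dog and 91.5 in platypus, 33.3-fold (95% interval 24.0 to 47.0) higher in platypus, and not listed by symbol in armadillo. The reads of KLF9 per read of KLF15 were 0.0638 in dog (95% interval 0.0127 to 0.198) and 0.0643 in platypus (0.0315 to 0.118), so the platypus ratio was 1.01 times that of dog (95% interval 0.270 to 3.76). Of 7 KLF family genes matched between dog and armadillo 1 was higher in dog and 0 in armadillo. Against platypus, 4 of 9 were higher in dog and 1 in platypus, beside 27.3% and 13.5% of all genes. Of those 4, KLF10 and KLF11 were listed at 0 in platypus. Between armadillo and platypus 2 of 6 were higher in armadillo and 0 in platypus.

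ZBTB16, also called PLZF, is a repressor that progesterone and glucocorticoids induce in stromal cells. ZBTB16 stands there as the Ensembl gene ENSDNOG00000023989. It was listed in armadillo, with 803 reads (60.6 normalised CPM, 95% interval 56.4 to 64.9). Neither the dog nor the platypus table lists it by symbol, so it entered no comparison.

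STAT5A carries the signal of prolactin and other cytokines to the nucleus and acts in decidual cells on the prolactin gene. STAT5A stands in the tables as the Ensembl genes ENSCAFG00000015346 and ENSDNOG00000001465. It had 576 reads in dog (33.7 normalised CPM, 95% interval 31.0 to 36.6) and 968 in armadillo (73.0, 68.5 to 77.7), and the platypus table does not list it by symbol. Armadillo was 2.17-fold (95% interval 1.95 to 2.41) above dog, short of the 4-fold limit, and 28.6% of genes had a larger fold on the armadillo side. Its close copy STAT5B was at 68.7 in dog and 105 in armadillo. The ratio of STAT5A to STAT5B reads was 0.491 in dog (95% interval 0.443 to 0.543) and 0.696 in armadillo (0.641 to 0.756), a difference of 1.42-fold (95% interval 1.25 to 1.62). These genes lie side by side and are alike in sequence, and how reads that match both were counted is not given in the sources used here. Of 8 other JAK-STAT genes matched between dog and armadillo, 2 were higher in dog and 1 in armadillo. STAT2, which carries interferon signals to the nucleus, was 5.46-fold (95% interval 5.02 to 5.95) above dog in armadillo. The prolactin receptor gene PRLR was low, at 0.643 in dog and 4.68 in armadillo and listed at 0 in platypus. Of 6 matched between dog and platypus 1 (JAK2) was higher in dog and 1 (JAK3) in platypus. Of 9 matched between armadillo and platypus 3 were higher in armadillo and 0 in platypus.

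The secreted members are DKK1, SST, TIMP3 and IL15. DKK1 blocks WNT signalling by binding the co-receptors LRP5 and LRP6, and progesterone induces it in human endometrial stroma. DKK1 stands in the tables as the Ensembl genes ENSCAFG00000015553, ENSDNOG00000000137 and ENSOANG00000007031. It had 102 reads in dog (5.97 normalised CPM, 95% interval 4.86 to 7.24) and 998 in armadillo (75.3, 70.7 to 80.1) and was listed at 0 in platypus. Armadillo was 12.6-fold (95% interval 10.3 to 15.6) above dog. Against the 3 reads that a count of 0 allows in platypus, DKK1 was 46.9-fold higher in armadillo (lower 95% limit 44.0). In dog it was 3.72-fold higher (lower 95% limit 3.03). The co-receptor gene LRP6 was listed in all 3 libraries, at 20.1 in dog, 63.6 in armadillo and 17.7 in platypus. LRP5 was listed by symbol in dog, at 84.4.

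Of the related WNT inhibitor genes, DKK3 had the order of DKK1 and DKK2 the opposite order. DKK2 was at 11.7 in dog and 82.4 in platypus, with 1 read in armadillo. Platypus DKK2 was 7.04-fold (95% interval 5.67 to 8.73) above dog. DKK3 was at 52.6 in dog, 139 in armadillo and 16.6 in platypus, 8.38-fold (95% interval 5.88 to 12.4) higher in armadillo than in platypus. Of the list of WNT inhibitors, DKK1 receptors and WNT target genes, 2 of 6 (DKK2 and AXIN2) were higher in dog than in armadillo and 0 in armadillo. Against dog, 3 of 7 (DKK2, KREMEN1 and CTNNB1) were higher in platypus and 0 in dog. Between armadillo and platypus 2 of 7 (DKK3 and LEF1) were higher in armadillo and 3 (DKK2, KREMEN1 and AXIN2) in platypus. KREMEN1, which takes DKK1-bound LRP6 into the cell, was 12.5-fold (95% interval 9.85 to 15.9) higher in platypus than in dog.

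SST encodes somatostatin, a peptide hormone that inhibits secretion and that human decidual cells make. SST stands in the tables as the Ensembl genes ENSDNOG00000013697 and ENSOANG00000000871. It had 116 reads in armadillo (8.75 normalised CPM, 95% interval 7.23 to 10.5) and was listed at 0 in platypus. Against the 3 reads that a count of 0 allows, armadillo was 5.45-fold higher (lower 95% limit 4.50). The dog table does not list it by symbol. A dog gene stands under the UniProt entry name SMS_CANFA, the name that UniProt uses for somatostatin, with 91 reads (5.32 normalised CPM, 95% interval 4.29 to 6.54), and was left out of the counts above. Taking it as SST, a choice made after seeing the data, would make 3 of 7 members higher in dog than in platypus, beside 27.3% of all genes. SST, like DKK1, would then be counted against a platypus level of 0. The 3 reads that this allows are worth 1.60 normalised CPM, and dog at 5.32 is less than 4-fold above that. The receptor gene SSTR1 was at 51.0 in armadillo, and SSTR2, SSTR3 and SSTR5 were listed at 0 in platypus. SSTR4 was not listed by symbol in any of the tables. CPE, a carboxypeptidase that trims hormone precursors, was at 12.9 in dog, 573 in armadillo and 511 in platypus. CPE was the 1 gene of the 3 matched in the somatostatin list that was higher in armadillo than in dog (44.3-fold, 95% interval 38.8 to 50.9) and in platypus than in dog (39.6-fold, 95% interval 34.1 to 46.0), with 0 of 3 higher in either of armadillo and platypus.

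TIMP3 encodes an inhibitor of metalloproteinases that stays bound to the extracellular matrix. TIMP3 stands in the tables as the Ensembl genes ENSCAFG00000001755, ENSDNOG00000007763 and ENSOANG00000005518. It was abundant in all 3 libraries, with 4632 reads in dog (271 normalised CPM, 95% interval 263 to 279), 13081 in armadillo (986, 969.6 to 1003) and 182 in platypus (97.4, 83.7 to 113). The intervals do not overlap, in the order armadillo, dog, platypus, which is the order of FKBP5 too. Armadillo was 3.64-fold (95% interval 3.52 to 3.77) above dog, below the 4-fold limit, and 10.1-fold (95% interval 8.75 to 11.8) above platypus. Dog was 2.78-fold (95% interval 2.40 to 3.25) above platypus. Per length TIMP3 stood above 99.2% of dog genes. In the dog gene table TIMP3 lies within SYN3, a synapsin gene, which had 10 reads in armadillo and is not listed by symbol in dog or platypus. Dog TIMP2 was at 35.1, and TIMP1 was not listed by symbol in any table. Among the protease genes, MMP2 (gelatinase A) was at 2525 in armadillo and 119 in platypus, 21.2-fold (95% interval 18.6 to 24.3) higher in armadillo, and RECK, a membrane inhibitor of these proteases, was at 5.03 in dog, 82.6 in armadillo and listed at 0 in platypus. Of 4 genes of that list matched between dog and armadillo 0 were higher in dog and 1 in armadillo. Of 2 matched between dog and platypus 1 (ADAMTS5) was higher in platypus. The other, RECK, was counted as higher in dog against a platypus level of 0. Against the 3 reads that this allows, it was 3.13-fold higher in dog (lower 95% limit 2.51), short of 4-fold. Of 5 matched between armadillo and platypus 3 were higher in armadillo and 1 (ADAMTS5) in platypus.

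IL15 encodes a cytokine that uterine natural killer cells need. IL15 stands there as the Ensembl gene ENSOANG00000013165. It was listed in platypus with 1 read (0.535 normalised CPM, 95% interval 0.0135 to 2.98), below the 3 reads that a count of 0 allows, and was not listed by symbol in dog or armadillo. The genes of its receptor were measured better. IL15RA, the chain that presents the cytokine, was at 0.702 in dog (12 reads) and 17.5 in armadillo (232 reads), 24.9-fold (95% interval 14.0 to 48.9) higher in armadillo. IL2RG, the shared signalling chain, had 2 reads in dog and 98 in armadillo, 63.2-fold (95% interval 17.0 to 529) higher in armadillo, and IL2RB was listed at 0 in platypus. Of 5 genes of the receptor and of responding lymphocytes matched between dog and armadillo 4 were higher in armadillo and 0 in dog. The shares of all genes were 15.2% and 9.76%. Of 3 matched between dog and platypus 1 (NCAM1) was higher in platypus and 0 in dog. Of 2 matched between armadillo and platypus 0 were higher in either. Of 10 leukocyte markers 5 were matched between dog and armadillo, and all 5 were higher in armadillo, beside 15.2% of all genes. Their summed levels were 163 normalised CPM in armadillo and 10.6 in dog. NKG7 is in both this list and that of responding lymphocytes, so the lists are not independent. The part of leukocytes in the difference of the receptor genes was not tested.

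SCARA5, a surface receptor that takes up ferritin and marks a group of stromal cells, had 3 reads in dog (0.175 normalised CPM, 95% interval 0.0362 to 0.513) and 579 in platypus (309.7, 285 to 336), and is not listed by symbol in armadillo. Its Ensembl genes are ENSCAFG00000008354 and ENSOANG00000015838. Platypus was 1765-fold (95% interval 601 to 8583) above dog, and 0.231% of matched genes had a larger fold on the platypus side. The log2 fold of -8.05 for dog over platypus was the largest among the members in either direction. The dog gene model of SCARA5 is 1485 bases long, near the median, and per length it stood above 28.5% of dog genes. Its relative SCARA3 did not share that difference. SCARA3 was at 9.01 in dog, 447 in armadillo and 10.2 in platypus, so the ratio of SCARA5 to SCARA3 reads was 0.0195 in dog (95% interval 0.00397 to 0.0580) and 30.5 in platypus (19.3 to 51.0). Of 6 scavenger receptor and iron genes matched between dog and armadillo 3 (SCARA3, COLEC12 and MSR1) were higher in armadillo and 0 in dog. The shares of all genes were 15.2% and 9.76%. Of 5 matched between dog and platypus 3 were higher in dog and 0 in platypus, beside 27.3% and 13.5% of all genes. Of 6 matched between armadillo and platypus 5 were higher in armadillo and 0 in platypus, beside 34.0% and 13.2% of all genes.

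The receptors that read the hormone could be compared in part. PGR, the progesterone receptor, was at 349 normalised CPM (653 reads, 95% interval 323 to 377) in platypus and was not listed by symbol in dog or armadillo. A dog gene under the UniProt entry name PRGR_CANFA, which UniProt uses for the progesterone receptor, had 223 reads (13.0 normalised CPM, 95% interval 11.4 to 14.9). The oestrogen receptor gene ESR1 was at 6.55 in dog and 1147 in platypus. NR3C1, the glucocorticoid receptor, was at 52.0 in armadillo (95% interval 48.2 to 56.1) and 50.8 in platypus (41.1 to 62.1), which overlap. The membrane-associated PGRMC1 was at 110.6 in dog, 75.0 in armadillo and 172 in platypus. PGRMC2 was at 18.1, 10.4 and 82.9, 7.97-fold (95% interval 6.29 to 10.1) higher in platypus than in armadillo. Of the receptor list, 1 of 3 (PAQR5, a membrane progestin receptor) was higher in dog than in armadillo and 0 in armadillo. Between dog and platypus 1 of 5 was higher in dog and 3 (PGRMC2, PAQR8 and ESR1) in platypus, and between armadillo and platypus 0 of 4 were higher in armadillo and 1 in platypus. Beside a level of PGRMC2 above both other libraries and of ESR1 above dog, platypus had the lowest level of FKBP5 (3.21), DKK1 listed at 0, and a higher level of SCARA5 than dog (309.7 against 0.175).

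**Figure D4:**
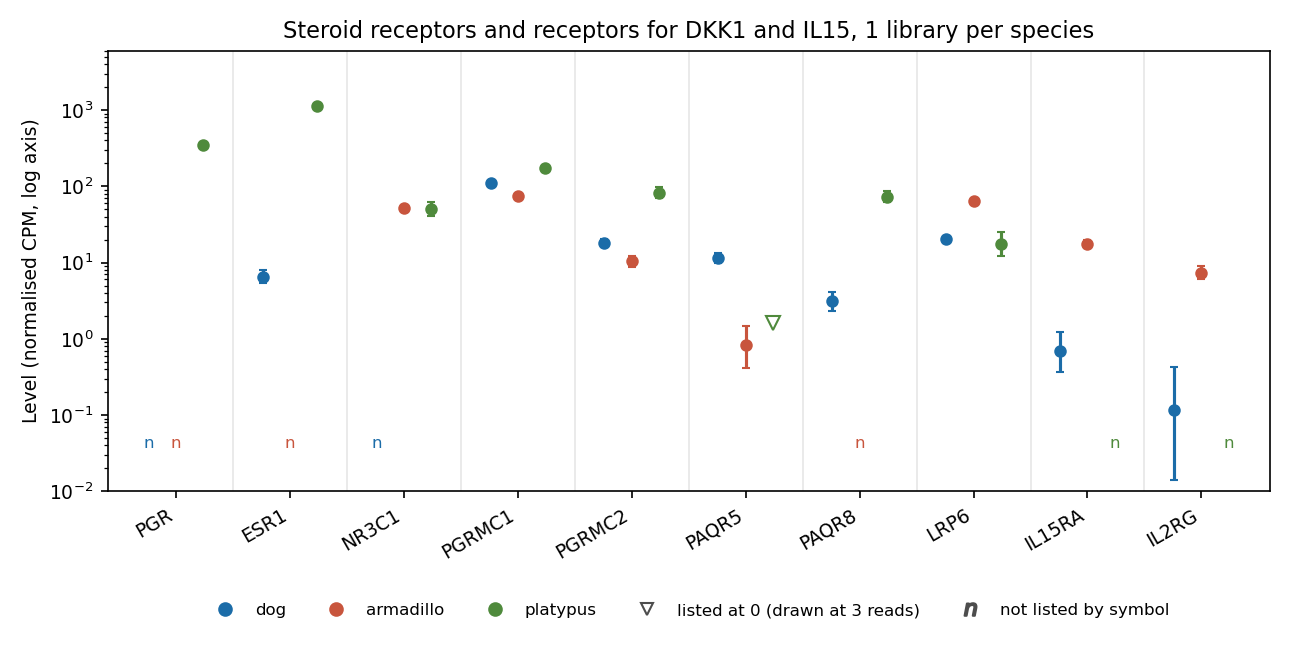
Level of the steroid receptor genes and of receptor genes for DKK1 (LRP6) and IL15 (IL15RA, IL2RG) in each library, in normalised CPM on a log axis, with bars for the exact Poisson 95% interval of counting error. PGRMC2 lies highest in platypus (82.9), ESR1 lies higher in platypus (1147) than in dog (6.55) and is not listed in armadillo, and IL15RA and IL2RG lie higher in armadillo (17.5 and 7.39) than in dog (0.702 and 0.117); open triangles mark genes listed at 0, drawn at 3 reads, and n marks a gene not listed by symbol.

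Receptor cofactors and partner transcription factors mostly lay within 4-fold. FOXO1, a partner of the progesterone receptor in decidual cells, had levels of 52.6 for dog, 61.1 for armadillo and 49.7 for platypus. NR2F2, a stromal nuclear receptor, was at 141, 184 and 326. Of 6 matched between dog and armadillo, HAND2, a stromal target of progesterone, was higher in dog and the coactivator NCOA1 in armadillo. NCOA1 was also higher in dog (1 of 6) and armadillo (1 of 8) than in platypus, where it had 1 read, with 0 of either list higher in platypus.

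A further 35 progesterone and decidual response genes were listed beside the members, a list chosen with earlier results of these data known. Of 16 matched between dog and armadillo 2 were higher in dog and 6 in armadillo, beside 9.76% and 15.2% of all genes. Their median log2 fold was -0.95, beside -0.20 over all matched genes. The largest folds were of IL1R1, the interleukin 1 receptor (57.1-fold, 95% interval 41.1 to 81.8), BMP2, a decidual morphogen (32.5-fold, 95% interval 23.7 to 45.8), and FST, the activin inhibitor follistatin (17.2-fold, 95% interval 14.4 to 20.7), all higher in armadillo, and of IGFBP1, a secreted marker of decidual cells (16.3-fold, 95% interval 14.3 to 18.6, higher in dog). PTCH1, the hedgehog receptor, was 9.25-fold (95% interval 8.07 to 10.6) higher in dog. Of 19 matched between dog and platypus 7 were higher in dog and 5 in platypus, beside 27.3% and 13.5% of all genes. Of these 19, 8 were listed at 0 in platypus and 2 in dog. Among the 7, DUSP1, CRISPLD2, PTCH1, IGFBP1 and NDRG1 were listed at 0 in platypus, and LRP2 had 3 reads there. Against the 3 reads that a count of 0 allows, CRISPLD2 had the smallest fold of those at 0, at 23.0. Of 19 matched between armadillo and platypus 12 were higher in armadillo and 1 (MAOA) in platypus, beside 34.0% and 13.2% of all genes. All 9 genes listed at 0 in platypus were among the 12, and PER1, MAOB and IL1R1 were the others. The median log2 fold was 3.56, beside 0.89 over all matched genes. DUSP1, a phosphatase that steroids induce, was at 56.6 in dog and 248 in armadillo and listed at 0 in platypus, and CRISPLD2, a secreted progesterone target, at 36.9, 235 and 0.

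For each member in all 3 tables, the nearest genes were those with the smallest Euclidean distance of log2(normalised CPM + 1) over the 3 libraries, which is only 3 points, among 6385 other genes. FKBP5 was nearest to PTPRU (distance 0.25), XRCC1 (0.43) and EIF2S2 (0.49), and DKK1 to SAMHD1 (0.17), RECK (0.25) and DPP7 (0.30). KLF9 was nearest to SGSM1 (0.26), FAM124A (0.48) and HOXD3 (0.68), and TIMP3 to HUWE1 (0.70), MYOF (0.92) and LAMA4 (0.98). FKBP4 had no gene within a distance of 1, and its nearest were PA2G4 (1.65), EIF3B (1.75) and ALAS1 (1.83). Its levels of 983, 63.1 and 1470.5 were thus further from those of any other gene than the levels of the other 4 members were.

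The libraries differed in markers of cell types, and in bulk tissue fewer cells of a type and less RNA per cell cannot be told apart. Armadillo was above dog in 3 of 3 matched stromal markers (summed level 8690.0 against 504 normalised CPM), 2 of 2 smooth muscle markers (21732 against 18.6) and 2 of 2 endothelial markers (7688 against 61.5), as it was in KLF9 and DKK1. Dog was above armadillo in 2 of 3 matched epithelial markers (2025 against 549), as it was in FKBP4. Against platypus, armadillo was higher in 6 of 6 matched endothelial markers (10081 against 3.21), beside 34.0% of all genes. Of these markers, VWF, KDR, ESAM, PLVAP and TEK were listed at 0 in platypus. The endothelial marker CDH5 was not listed by symbol in armadillo and was at 24.1 in platypus (45 reads) and 24.7 in dog. Armadillo was also higher than platypus in 4 of 7 stromal markers, with 1 (LUM) higher in platypus. Between dog and platypus, 2 of 4 stromal markers were higher in platypus (2423 against 602) and 3 of 3 epithelial markers in dog (2025 against 3.21), as SCARA5 and FKBP5 were. Smooth muscle markers (3 of 3, 5145 against 19.1) and markers of the uterine lining (3 of 4, 2063 against 29.5) were also higher in platypus than in dog, as SCARA5 was. Among 3 trophoblast markers, 1 (TFAP2C, 26.5-fold, 95% interval 18.3 to 40.0) was higher in armadillo than in dog, with summed levels of 54.3 and 2.98, as KLF9 and DKK1 were. The part of these markers in the members' differences was not tested. Of the genes that mark the uterine lining, dog lists 6 of 9 and armadillo 5 of 9, neither with PGR under its symbol, and platypus lists 7 of 9 with PAX8 at 0.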

How the data were processed

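Messenger RNA of pregnant endometrium was sequenced, with 1 library per species. Per the submitters' processing notes Bowtie was used; the sources used here do not give its version, the builds or the annotation. The dog table was deposited with estimated counts of the reads on each gene, of which 516 were not whole and were rounded, and 2 scores (mapped bases and a relative abundance of unstated unit). Reads divided by relative abundance gave whole gene lengths, within 0.1 bases, for 100% of 5644 genes with over 500 reads, after fitting 1 constant. The other tables hold whole counts by gene, under the column headers Mapped_Reads (armadillo) and Gene_Count (platypus). A line of totals in the dog and armadillo tables was left out.

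Symbols that occur once in a table were matched in upper case; 82 dog genes named by accession got a symbol from the dog RefSeq table (assembly UU_Cfam_GSD_1.0), used for names and neighbouring genes only. CPM used the summed gene counts and was multiplied by median-of-ratios factors from the 3496 genes that reached 2 CPM in every library (0.797 dog, 0.997 armadillo, 1.20 platypus). Levels have exact Poisson intervals, folds exact binomial intervals given the summed reads of the pair, and differences of ratios log-normal intervals. Intervals cover counting error only. Reads that carry no molecular identifier may be copies of one molecule, which would make the intervals too narrow. Every member was named; from other lists, chosen receptors and relatives and at most 4 genes past the limit per comparison by fold were named, with a few other levels given for context after their values were seen. Members and lists were chosen with earlier results of these data known. The calls were tested on simulated counts for dog against armadillo and dog against platypus, and not for armadillo against platypus. Those counts held counting error only, so the test does not cover differences between animals or gene models. No sequence table was used here, and values of some genes of the lists are not reported here. Python 3.11.15, numpy 2.4.6, pandas 2.3.3 and scipy 1.17.1 were used.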

Additional observations from a re-analysis of the deposited data

How the results depend on the processing

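The fold of each member was recomputed without scaling, with upper-quartile scaling, with a pseudocount of 0.1, with 2 CPM required in both libraries and with rows of a symbol summed, and, chosen after seeing the data, with SMS_CANFA taken as SST, without genes at 0 and with genes at 0 set to 3 reads. Of 135 recomputed folds 134 kept their direction. The exception was FKBP4 in dog over platypus without scaling (0.01 instead of -0.58). Of 60 recomputed counts of members past the limit, these and fold limits of 2 and 8 included, 49 stayed within 1.5 times. For dog against platypus, the count higher in platypus went from 2 to 1 without scaling and with a limit of 8, and to 0 of 3 with 2 CPM in both libraries, beside 9.91%, 7.51% and 17.3% of all genes. The count higher in dog went from 2 to 1 with a limit of 8 (1818 of 9073 genes), with 2 CPM in both (18.9% of all genes), without genes at 0 (22.4%) and with these set to 3 reads (25.7%). For dog against armadillo, the count higher in armadillo went from 2 to 5 of 6 with a limit of 2 (26.0% of all genes) and to 1 of 5 with 2 CPM in both (12.2%). For armadillo against platypus, the count higher in armadillo went from 5 to 3 with 2 CPM in both (19.9%) and without genes at 0 (24.8%), which leave 4 members to compare. With upper-quartile scaling that count was 4 of 6 (29.9% of all genes), as KLF9 then lay below the limit (log2 fold 1.92). Without scaling 12.6% of all genes were higher in dog and 13.3% in armadillo. No paired analysis was possible because each species has 1 library. The platypus depth limits FKBP5 (6 reads), KLF9 (11 reads) and IL15 (1 read), and the dog counts of 3 reads limit KLF9 and SCARA5.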

Other observations

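Dog genes under UniProt entry names bear on relatives of the members that the symbol match left out. SSR1_CANFA, the name that UniProt uses for somatostatin receptor 1, had 985 reads (57.6 normalised CPM, 95% interval 54.1 to 61.3), beside 51.0 for SSTR1 in armadillo. SSR2_CANFA, the name for somatostatin receptor 2, had 11 reads (0.643 normalised CPM, 95% interval 0.321 to 1.15). TIMP1_CANFA had 1010 reads (59.1 normalised CPM, 95% interval 55.5 to 62.8) and stood per length above 92.2% of dog genes, below TIMP3. These genes were looked up after the data were seen and entered no comparison.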
